A study of Homo sapiens with 3 samples.

Results

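The genes described here encode the subunits of the mitochondrial respiratory chain and of ATP synthase, together with assembly factors that carry the same symbol prefix. They were chosen by gene symbol alone: every probe whose symbol begins with NDUFA, NDUFB, NDUFC, NDUFS, NDUFV, UQCR, COX4 to COX8 or ATP5, or is SDHA to SDHD, with pseudogenes left out. The rule gave 91 genes with 126 probes, out of 20043 gene symbols on 30109 probes that carry a single symbol and 47315 probes in all. By complex there were 36 genes of complex I, 3 of complex II, 8 of complex III, 17 of complex IV and 18 of complex V. A further 8 (NDUFAF1 to NDUFAF8) are complex I assembly factors, and NDUFB2-AS1 is a noncoding antisense RNA caught by the prefix. SDHB and UQCRFS1 were not analysed here, nor were the subunits encoded by mitochondrial DNA. The complex V group includes ATP5IF1, the inhibitor protein of ATP synthase, so 81 genes are subunits proper.

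The cells were HCC1937, a long-established line from a human breast cancer that is basal by its label, and every culture was kept in DMEM holding 3 mM glucose and 0.5 mM glutamine. Each RNA was hybridised to its own Illumina bead array, 3 arrays in all with 1 array in each group: untreated cells, cells exposed to 200 nM dexamethasone, a synthetic glucocorticoid, and cells exposed to the same dose of dexamethasone plus 1 µM retinoic acid, here called the combination. Both treatments lasted 16 h, and retinoic acid alone was not analysed here. With 1 array per group there was no replicate check and no test, so every difference below compares arrays and not conditions. Genes were described by fixed sizes of 1.5-fold (0.585 on the log2 scale) and 2-fold (1 on the log2 scale).

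The respiratory chain passes electrons from NADH through complex I, or from succinate through complex II, to ubiquinone, then through complex III and cytochrome c to complex IV, where oxygen is reduced. Complexes I, III and IV pump protons across the inner membrane, and ATP synthase, or complex V, uses the gradient to make ATP. The nuclear genes for these subunits are active in nearly all cells, while several subunits of complex IV exist as isoforms restricted to tissues such as muscle, lung or testis. NRF1 (nuclear respiratory factor 1) and YY1 are transcription factors known for sites in the promoters of many of these genes.

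Letters of these factors' motifs were more frequent in the promoters of these genes than in all promoters, although most of the genes held neither. The promoters of 4 of the genes that passed the 1.5-fold rule and held a match are shown. NDUFA5, NDUFAF4 and SDHD also passed it and held an NRF1 match, and are not shown. Of those shown, COX5B was higher with dexamethasone, NDUFAF5 higher with the combination, and NDUFS7 and UQCRC1 were lower with the combination than with dexamethasone. Each window runs 5′ to 3′ on the gene's own strand in RefSeq, build GRCh38.p14, and spans bases before and just after an annotated start. It is chr2:97645812-97646111 on the plus strand for COX5B, chr20:13784778-13785077 on the plus strand for NDUFAF5, chr19:1383657-1383956 on the plus strand for NDUFS7 and chr3:48609597-48609896 on the minus strand for UQCRC1. Capitals mark a match to the NRF1 core GCGCATGC or its reverse complement in the first 3, and a match to the YY1 letters AAGATGGCG in NDUFS7 and UQCRC1.
COX5B: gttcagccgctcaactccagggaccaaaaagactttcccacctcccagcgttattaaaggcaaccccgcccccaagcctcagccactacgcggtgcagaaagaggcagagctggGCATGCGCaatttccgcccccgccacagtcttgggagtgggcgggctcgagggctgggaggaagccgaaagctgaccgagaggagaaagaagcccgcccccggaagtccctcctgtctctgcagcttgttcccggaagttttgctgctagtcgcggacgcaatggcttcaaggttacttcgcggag
NDUFAF5: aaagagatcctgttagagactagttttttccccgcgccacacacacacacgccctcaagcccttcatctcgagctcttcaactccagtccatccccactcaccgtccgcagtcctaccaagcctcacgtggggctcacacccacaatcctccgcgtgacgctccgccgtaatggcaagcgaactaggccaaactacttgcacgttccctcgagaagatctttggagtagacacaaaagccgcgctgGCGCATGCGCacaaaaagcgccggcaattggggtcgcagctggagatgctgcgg
NDUFS7: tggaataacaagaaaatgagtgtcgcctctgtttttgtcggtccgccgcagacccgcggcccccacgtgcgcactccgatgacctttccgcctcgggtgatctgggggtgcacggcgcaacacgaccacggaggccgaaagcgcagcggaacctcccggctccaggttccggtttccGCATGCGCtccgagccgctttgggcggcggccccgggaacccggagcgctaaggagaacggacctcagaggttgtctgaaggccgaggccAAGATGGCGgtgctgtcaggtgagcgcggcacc
UQCRC1: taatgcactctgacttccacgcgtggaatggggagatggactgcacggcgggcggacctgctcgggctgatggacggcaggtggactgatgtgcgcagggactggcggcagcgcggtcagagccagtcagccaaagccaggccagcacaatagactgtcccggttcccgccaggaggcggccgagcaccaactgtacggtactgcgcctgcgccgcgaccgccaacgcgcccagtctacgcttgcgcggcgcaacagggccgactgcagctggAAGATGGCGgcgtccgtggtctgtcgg

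In NDUFAF5 the core matched on both strands in an overlapping position, so the capitals there cover the longer palindrome. Promoter windows were found for 76 of the 91 genes, 94 windows in all, and both strands were searched. The NRF1 core was in 16 of the 94 windows (17.0%), and these 16 windows belonged to 15 genes. It was in 3.05% of all 35116 windows in the table and in 3.74% of the 22199 windows of protein-coding genes. The YY1 letters were in 11 windows (11.7%) of 9 genes, against 1.75% of all windows and 2.41% of those of protein-coding genes. An estrogen-related receptor motif, TCAAGGTCA, was in 1 window (1.06%), that of SDHD, against 0.353%. The glucocorticoid receptor core ACANNNTGT was in 5 windows (5.32%), against 5.37% of all windows and 3.98% of those of protein-coding genes. The retinoic acid receptor element DR5 was in 0 windows, against 2 windows of the whole table (0.0057%). A match describes letters within a window and is not a binding site.

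The arrays had median bead intensities of 131.6, 149.3 and 159.0 before normalization and detected 16818, 17091 and 16635 probes, in the order untreated, dexamethasone and combination, which is used for all 3 values below. Levels are log2 normalized intensities, and differences are on the same scale. Each is given with its standard error over the beads of the array (bead SE), which covers technical error within an array only. The untreated and combination arrays shared a slide and the dexamethasone array lay on another, so slide and treatment cannot be told apart wherever the dexamethasone array is compared. The basal label was only partly borne out by markers: KRT14 was not detected, KRT5 was detected on the dexamethasone array alone, and EGFR and CDH3 were detected on all 3 arrays. The basal markers KRT17, KRT6A and TP63 were not analysed here, so the basal list is incomplete. All 5 luminal markers (ESR1, GATA3, FOXA1, KRT8 and KRT18) were detected on every array. The summed unnormalized intensity of the 4 basal markers measured, undetected probes included, was 784.6, 1263.3 and 797.7. That of the 5 luminal markers was 20078.4, 24531.3 and 26031.7, of which KRT8 alone gave 12138.4, 20257.9 and 16703.7. KRT8 was higher with dexamethasone (0.40), while ESR1 (-1.73), GATA3 (-1.59), FOXA1 (-1.30) and KRT18 (-0.95) were lower, and these 4 were also below untreated with the combination. Among markers of other cells, COL1A2, COL3A1, PDGFRB, PTPRC and CD3E were not detected on any array, COL1A1 was detected on 2 arrays and CD68 on all 3. The summed intensity was 541.9, 609.9 and 604.6 for the 4 fibroblast markers and 1276.8, 1080.3 and 1223.6 for the 3 leukocyte markers. Both sums are unnormalized and include undetected probes, so they hold background. COL1A1, the only fibroblast marker detected, had 186.9, 209.3 and 167.0 and was not detected on the combination array. The part of these markers in the differences below was not tested, and in bulk RNA fewer cells of a kind and less RNA per cell cannot be told apart.

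Of the 91 genes, 83 were detected on at least 1 array (91.2%, against 55.4% of all named genes), 82 of them on all 3. The 8 that were not detected were NDUFB2-AS1, the complex I subunit NDUFS6, and 6 isoforms of complex IV. These 6 were COX4I2, known from lung, COX6A2 and COX7A1, the heart and skeletal muscle forms, COX6B2, a testis form, COX7B2 and COX8C. In each case the widespread partner was detected on all 3 arrays: COX4I1, COX6A1, COX6B1, COX7A2, COX7B and COX8A. COXFA4, formerly NDUFA4 and now counted as a complex IV subunit, lies outside the symbol rule and was detected with levels of 12.95, 13.13 and 13.28, while its isoform COXFA4L2 was not detected. The complex IV of these cells was thus measured only through its widespread isoforms, and no isoform became detectable with either treatment.

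**Figure D1:**
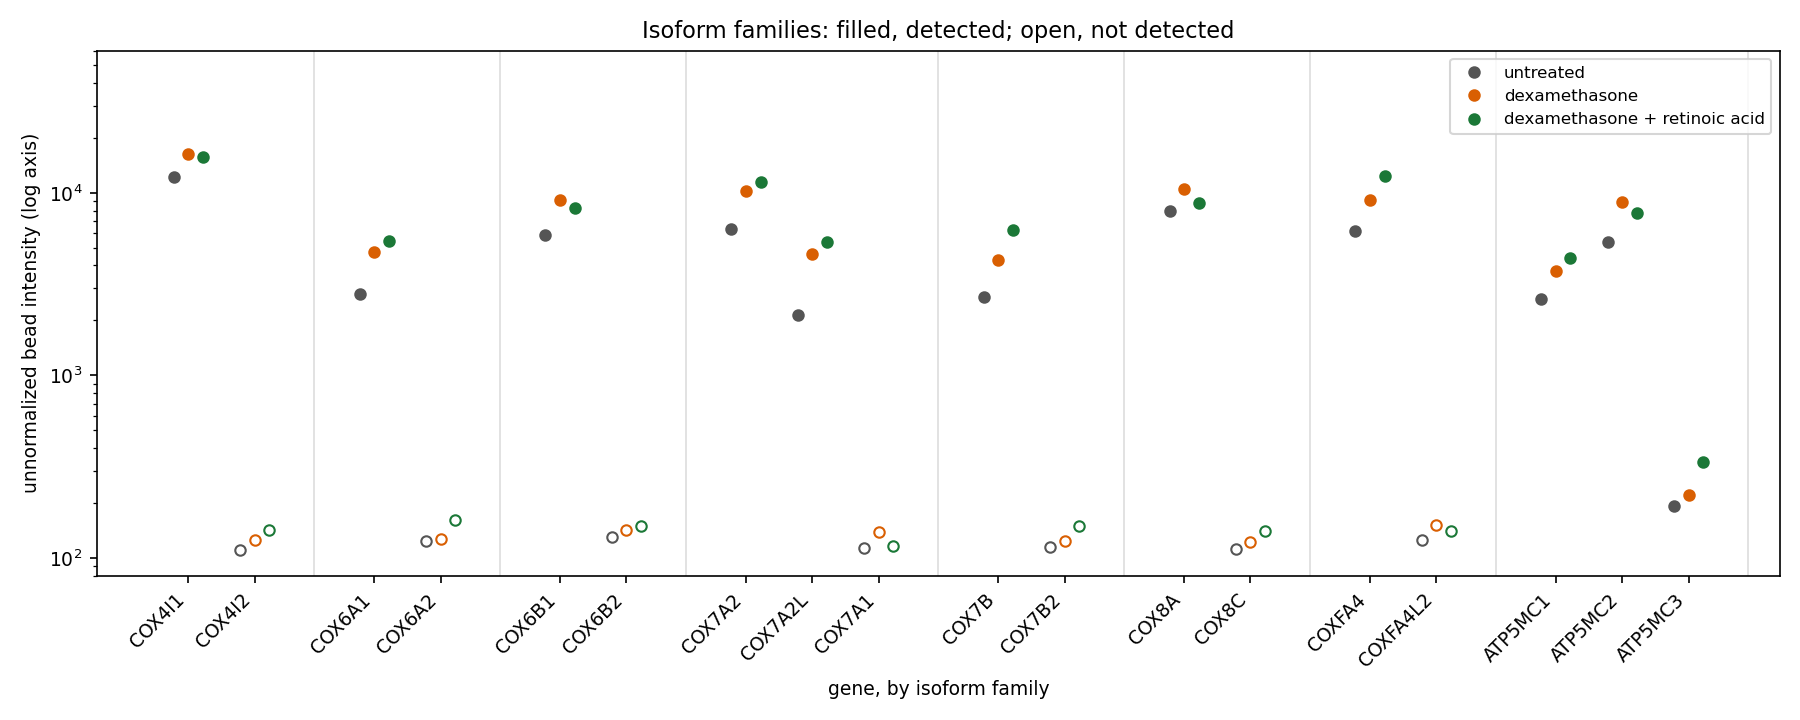
Unnormalized bead intensity on a log axis for the isoform families of complex IV and of the ATP synthase c subunit, with 1 point per array (grey untreated, orange dexamethasone, green combination). Filled points were detected and open points were not. The open points are COX4I2, COX6A2, COX6B2, COX7A1, COX7B2, COX8C and COXFA4L2 on all 3 arrays. Heights of different genes come from different probes and cannot be set against each other.

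The comparison of dexamethasone with untreated cells showed small differences that lay mostly on the higher side. Over the 82 genes measured in it, the median difference was 0.13, with quartiles of -0.03 and 0.28. The median over all 10852 genes measured was 0.0, and over those in the top quartile of mean level, which held 64 of the genes, it was -0.03. There were 60 genes above 0 and 22 below (73.2% and 26.8%, against 49.7% and 49.6% over all measured genes). Few genes passed the size rule. COX7A2L and COX5B were at least 1.5-fold higher, which is 2 genes or 2.44%, against a background of 13.4% of all measured genes. NDUFS1 was at least 1.5-fold lower, which is 1 gene or 1.22%, against 13.7%. At 2-fold there were 0 genes higher, against 5.73%, and 0 lower, against 4.57%. With arrays scaled to the 75th percentile of all probes in place of quantile normalization, the median was 0.03, against -0.04 over all genes. Under that scaling 48 of the genes were above 0 and 34 below, and 1 gene was higher and 1 lower at 1.5-fold.

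With the combination against untreated cells the genes centred near 0 and spread further apart. The median over 83 genes was 0.03 (quartiles -0.19 and 0.28), against -0.01 over all 10705 genes measured. Of the genes, 45 were above 0 and 38 below (54.2% and 45.8%, against 49.1% and 50.5% over all measured genes). The sign of the median over the genes depended on the scaling, since it was -0.06 with arrays scaled to the 75th percentile of detected probes. At 1.5-fold, 6 genes were higher (7.23%, background 15.5%) and 3 were lower (3.61%, background 16.1%). The higher genes were NDUFA5, NDUFAF5, NDUFV2, NDUFAF6, COX7A2L and SDHD, and the lower were NDUFB7, UQCRC1 and NDUFS8. Scaled to the 75th percentile of all probes, 6 were higher and 7 lower, and scaled to that of detected probes, 5 were higher and 7 lower. At 2-fold there was 1 gene higher (background 5.84%), NDUFA5, and 0 lower (background 5.43%).

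Set against dexamethasone alone, the combination array showed lower levels for most of the genes. The median over 83 genes was -0.11 (quartiles -0.30 and 0.13), against -0.01 over all 10734 genes measured. Of the genes, 31 were above 0 and 52 below (37.3% and 62.7%, against 47.8% and 51.0% over all measured genes). At 1.5-fold, 8 genes were higher (9.64%, background 10.5%), namely NDUFA5, NDUFS1, NDUFAF5, NDUFV2, NDUFAF6, ATP5MC3, NDUFAB1 and NDUFAF4. At the same size 4 were lower (4.82%, background 11.5%), namely UQCRC1, NDUFB7, COX5B and NDUFS7. At 2-fold there was 1 gene higher, NDUFA5 (background 2.99%), and 0 lower (background 3.58%). Scaled to the 75th percentile of all probes, the median over the genes was -0.05, with 37 above 0 and 46 below, and 8 were higher and 3 lower at 1.5-fold. Scaled to that of detected probes, which put the median of all genes at -0.10, the median over the genes was -0.19 and 6 of the genes were higher and 7 lower at 1.5-fold. Over all measured genes the share of 1.5-fold calls that were higher then went from 47.8% to 35.3%, and that of 2-fold calls from 45.5% to 31.2%.

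Fewer of the genes passed the size rule than of all measured genes. In the 3 comparisons 79 of 82 (96.3%), 74 of 83 (89.2%) and 71 of 83 (85.5%) stayed within 1.5-fold, where the shares over all measured genes were 73.0%, 68.4% and 78.0%. The interquartile ranges of the differences were 0.31, 0.47 and 0.44, against 0.67, 0.77 and 0.60 over all measured genes. Most of the genes are bright, and in the top quartile of mean level the 1.5-fold shares over all genes were 9.36% higher and 11.7% lower with dexamethasone, 12.1% and 15.1% with the combination, and 7.86% and 7.79% between the treatments. For the 64 genes in that quartile the shares were 3.12% and 0.0%, 4.69% and 4.69%, and 3.12% and 6.25%. Over all 83 genes the share higher between the treatments (9.64%) was above that of the top quartile. The median bead SE of a difference was 0.07 in each comparison. Differences larger than 3 bead SE were found for 27 genes with dexamethasone (21 higher, 6 lower), 44 with the combination (23 higher, 21 lower) and 47 between the treatments (15 higher, 32 lower). The same count was not made over all measured genes, so whether these counts are many or few is not known. In all, 15 genes passed 1.5-fold in any comparison and 68 in none. Since the 3 comparisons share their arrays, a gene that stands apart on 1 array enters 2 of them.

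**Figure D2:**
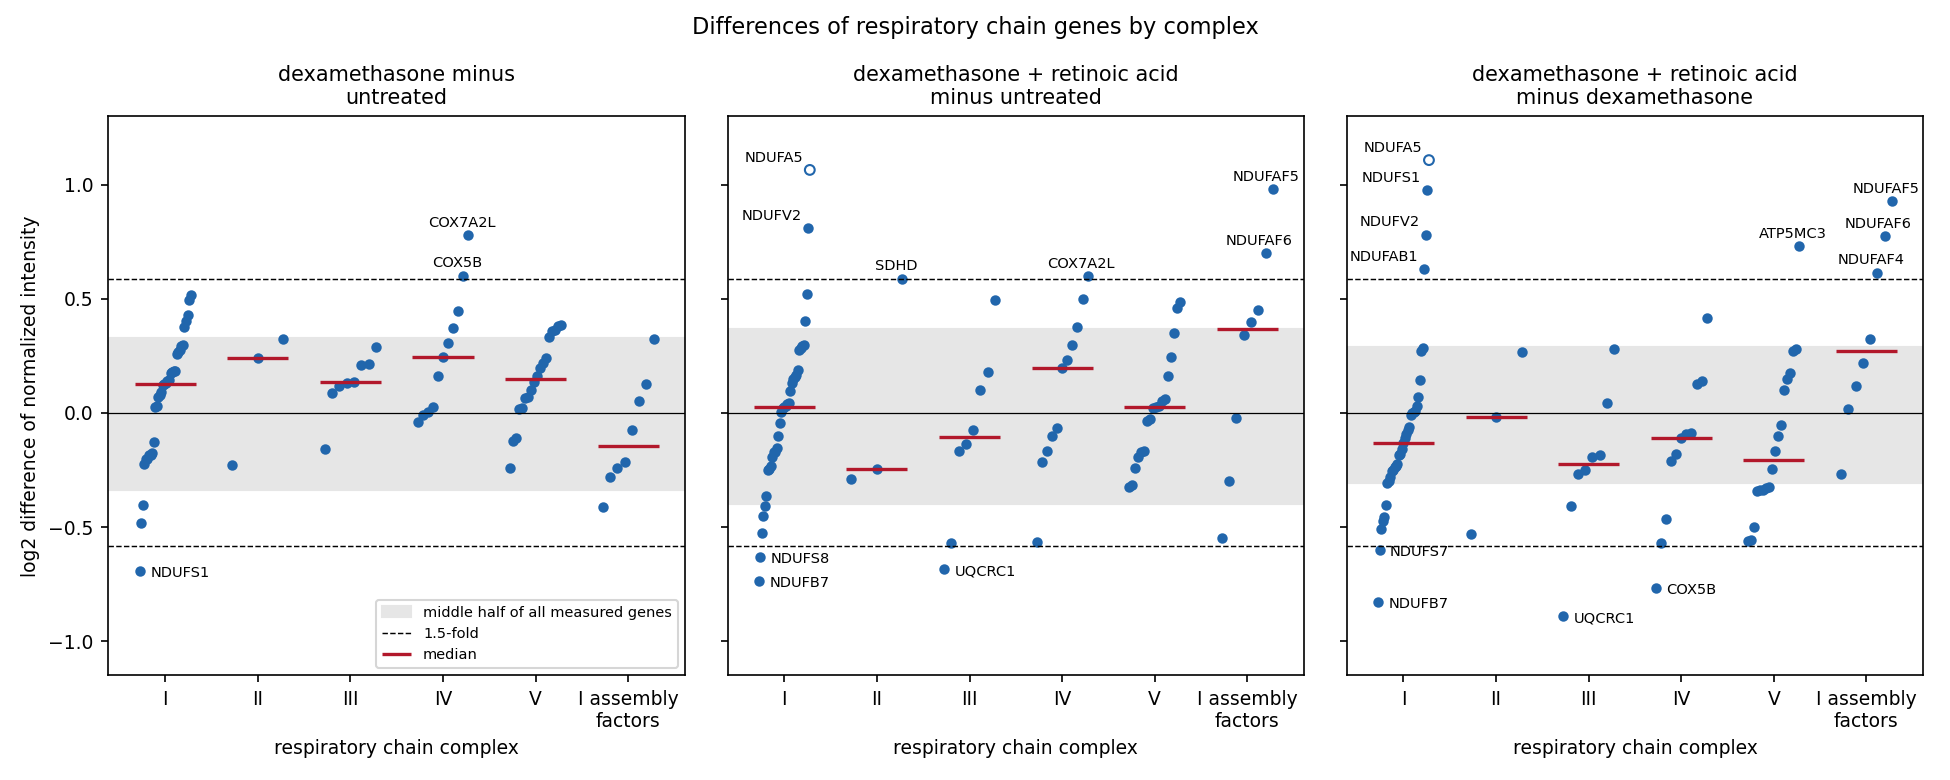
Log2 difference of normalized intensity for each measured gene (points, ordered by value within a complex), by respiratory chain complex, in the 3 comparisons. Red lines are medians of the complex, the grey band is the interquartile range of all measured genes, dashed lines mark 1.5-fold and open points are lower bounds. Most points lie inside the dashed lines in every panel, and the points of the complex I assembly factors sit mostly above 0 between the treatments, where the medians of complexes I to V are below 0 (above 0 under a scaling to a 75th percentile for complexes I and II).

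Complex I oxidises NADH in the matrix arm and pumps protons in the membrane arm. The median of its measured genes was 0.13 with dexamethasone (34 genes, 24 of them above 0), 0.03 with the combination (35 genes) and -0.13 between the treatments, where 23 of 35 were below 0. With scaling to the 75th percentile of all probes the first median was 0.02 and the last turned to 0.01. The genes of the NADH-oxidising module did not move together. NDUFV2, an iron-sulfur subunit of that module, had levels of 11.50, 11.53 and 12.31, so the combination array alone was high, by 0.81 against untreated and 0.78 against dexamethasone (bead SE 0.08 and 0.07). NDUFV1, the flavin-binding subunit beside it, had 11.30, 11.58 and 11.32, with the dexamethasone array the highest by 0.28 (bead SE 0.09) over untreated. NDUFS1, the largest iron-sulfur subunit of the module, had 6.56, 5.87 and 6.84, so the dexamethasone array alone was low. The difference was -0.69 (bead SE 0.18) against untreated and 0.98 (bead SE 0.16) between the treatments. NDUFS1 lay near the detection limit, and the first of these differences was -0.27 without background correction.

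The complex I genes at least 1.5-fold lower with the combination were NDUFB7, NDUFS8 and NDUFS7. NDUFB7 passed against both other arrays, NDUFS8 against untreated only and NDUFS7 against dexamethasone only. NDUFS7 and NDUFS8 belong to the ubiquinone-binding module and NDUFB7 to the membrane arm. Neither part moved as a whole: NDUFB5, also in the membrane arm, was 0.52 above untreated with the combination. NDUFS7 and NDUFS8 carry the iron-sulfur clusters next to the ubiquinone site. NDUFS7 had levels of 10.68, 10.75 and 10.15, and the combination array was low, with differences of -0.53 from untreated and -0.60 from dexamethasone (bead SE 0.07 for both). Its promoter is the one shown above with both an NRF1 and a YY1 match. NDUFS8 had 13.22, 12.81 and 12.59, each treated array below the untreated one, with differences of -0.41 (bead SE 0.08) for dexamethasone and -0.63 (bead SE 0.09) for the combination. NDUFB7, an accessory subunit of the membrane arm, had 11.45, 11.54 and 10.71. Its combination array was 1.67-fold below untreated and 1.78-fold below dexamethasone, differences of -0.74 and -0.83 (bead SE 0.06 for both). NDUFS3, another subunit of the ubiquinone module, had 12.42, 12.23 and 12.22, the largest difference being -0.19.

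Other accessory subunits of complex I differed in order over the arrays. NDUFB10, in the membrane arm, had 12.73, 12.53 and 12.28, so the untreated array was the highest, and the combination differed from it by -0.45 (bead SE 0.06). NDUFAB1 is the mitochondrial acyl carrier protein, which serves fatty acid and lipoic acid synthesis as well as complex I. It had 12.70, 12.47 and 13.10, with the combination array high by 0.63 (bead SE 0.06) over dexamethasone. NDUFA5, a matrix arm subunit, was detected only on the combination array, at 6.66, and its probe measured 5.14 and 5.33 on the other arrays without being detected there. Set against the lowest detected level of those arrays (5.59 and 5.55), it was at least 2.09-fold higher than untreated and at least 2.16-fold higher than dexamethasone. NDUFA5 lies close to background, and without background correction the first of these differences was 0.40 on the log2 scale, under the 1.5-fold size. NDUFB5, in the membrane arm, had 12.19, 12.71 and 12.71, so both treated arrays were high, by 0.52 in each case, just under the 1.5-fold size. NDUFA11 and NDUFA13, both membrane arm subunits, peaked with dexamethasone, with levels of 10.57, 11.00 and 10.53 for NDUFA11 and 10.55, 11.04 and 10.59 for NDUFA13.

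The assembly factors NDUFAF1 to NDUFAF8 help to build complex I and are not part of the finished enzyme. Their median was -0.14 with dexamethasone (5 of 8 below 0), 0.37 with the combination (5 of 8 above 0) and 0.27 between the treatments (7 of 8 above 0), and each of these signs was the same under every scaling run. The subunits of the 5 complexes had medians of 0.14, 0.02 and -0.16, the second of which was -0.03 and -0.09 under the scalings to a 75th percentile. The difference between these groups of genes was not tested. NDUFAF5, a methyltransferase-like protein that modifies NDUFS7, had levels of 8.82, 8.87 and 9.80. The combination array alone was high, by 0.98 (bead SE 0.11) against untreated and 0.93 (bead SE 0.11) against dexamethasone. Its second detected probe gave 0.58 and 0.83 for the same differences. NDUFAF6 had 9.47, 9.40 and 10.17, with the combination array high by 0.70 and 0.77 (bead SE 0.11 and 0.13). NDUFAF4, which binds NDUFAF3 during assembly, had 8.54, 8.32 and 8.94, a difference of 0.61 (bead SE 0.12) between the treatments. Its second probe showed 0.03, so the 2 probes of NDUFAF4 differ on this. NDUFAF3 itself had 12.09, 11.68 and 11.80, the untreated array being the highest.

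Complex II joins the citric acid cycle to the chain. Its flavin-binding subunit SDHA had levels of 10.71, 10.49 and 10.47, with both treated arrays slightly low. The second probe of SDHA gave 0.12 with dexamethasone where this one gave -0.23. Of the 2 subunits that anchor the complex in the membrane and bind ubiquinone, SDHC had 11.06, 11.30 and 10.77 and SDHD had 9.79, 10.11 and 10.38. The anchors thus differed in order: SDHC was lowest and SDHD highest with the combination. SDHD was 0.59 (bead SE 0.08) above untreated in the combination, at the edge of the 1.5-fold size, and 0.32 above it with dexamethasone. SDHC was -0.53 (bead SE 0.08) between the treatments. Each of SDHA and SDHC had a second detected probe, and these gave -0.77 for SDHA and 0.07 for SDHC between the treatments, where the brighter probes gave -0.02 and -0.53.

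Complex III passes electrons from ubiquinol to cytochrome c. With dexamethasone 7 of its 8 genes were above 0 (median 0.13), and between the treatments 6 of 8 were below 0 (median -0.22). With scaling to the 75th percentile of all probes the first of these was 0.02. The second rests on the brightest probes, and another detected probe of UQCRB, UQCRH and UQCR10 was above 0 (0.22, 0.20 and 0.18). With the median over the detected probes it was -0.11. That choice also turned the median for the combination against untreated from -0.106 to 0.096. Its core proteins UQCRC1 and UQCRC2 went opposite ways with the combination. UQCRC1 had levels of 10.51, 10.72 and 9.83, so the combination array was low, with differences of -0.68 from untreated and -0.89 from dexamethasone (bead SE 0.09 for both). UQCRC2 had 10.93, 11.15 and 11.43, with the combination array the highest, by 0.50 (bead SE 0.11) over untreated. The small subunit UQCR10 had 10.43, 10.28 and 9.87, but the probes of UQCR10 gave -0.57, -0.32 and 0.39 for the combination against untreated. UQCRH, the hinge protein, had 12.99, 13.07 and 12.82, and its close copy UQCRHL had 13.05, 13.19 and 13.23. The probe sequences were not available to tell the copies apart, so both values are uncertain. CYC1, the cytochrome c1 subunit whose symbol lies outside the rule, differed by 0.14, 0.001 and -0.14 in the 3 comparisons.

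**Figure D3:**
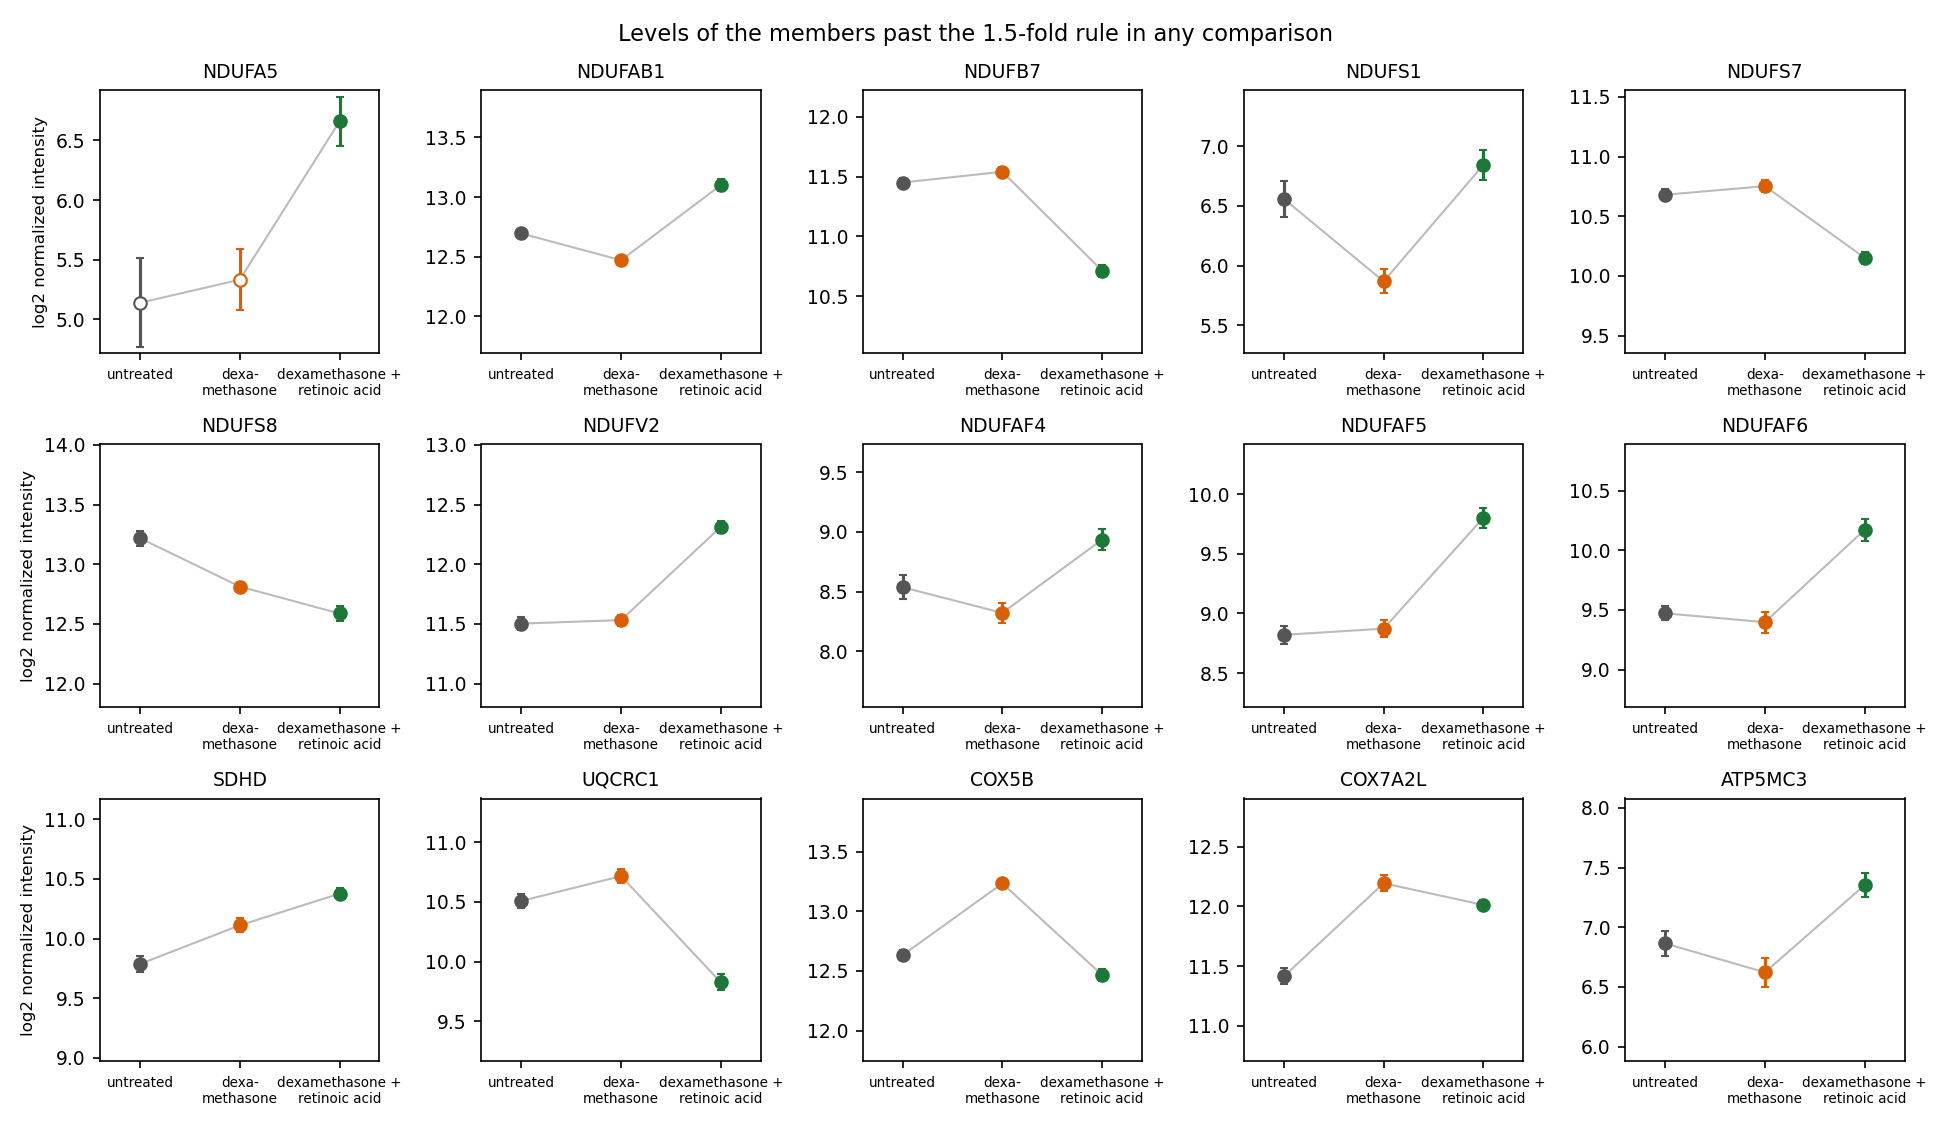
Log2 normalized intensity on the 3 arrays for the 15 genes that passed 1.5-fold in any comparison, with bars of 1 bead SE and open points where the probe was not detected. Every panel spans the same range of log2 units. The combination array is the highest in NDUFA5, NDUFAB1, NDUFS1, NDUFV2, NDUFAF4, NDUFAF5, NDUFAF6, SDHD and ATP5MC3 and the lowest in NDUFB7, NDUFS7, NDUFS8, UQCRC1 and COX5B.

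Complex IV, cytochrome c oxidase, reduces oxygen. Its 11 measured genes had a median of 0.25 with dexamethasone (9 above 0), 0.20 with the combination and -0.11 between the treatments (8 below 0). With the combination this median was -0.21 and -0.27 under the 2 scalings to a 75th percentile, so its sign depended on the scaling. COX7A2L, a COX7A-related protein known for joining complexes III and IV in supercomplexes, had levels of 11.41, 12.19 and 12.01. Both treated arrays were high, by 0.78 (bead SE 0.10) with dexamethasone and by 0.60 (bead SE 0.08) with the combination. COX5B, a nuclear-encoded structural subunit, had 12.63, 13.23 and 12.47, so the dexamethasone array alone was high, by 0.60 (bead SE 0.06) over untreated and 1.70-fold over the combination. COX5A, which sits beside it in the enzyme, had 12.73, 12.69 and 13.11, the combination array being the highest. COX8A had 13.32, 13.32 and 12.75, with the combination array low in both comparisons, by differences of -0.57 (bead SE 0.05), just inside the 1.5-fold size. After quantile normalization COX4I1 (13.84, 13.86 and 13.77) and COX6C (14.17, 14.16 and 14.07) were the steadiest of the complex, with no difference larger than 0.10 in size. Their values under the scalings to a 75th percentile are not given here, so this steadiness is limited to quantile normalization. COX6A1, COX7A2 and COX7B had differences of 0.45, 0.31 and 0.37 with dexamethasone.

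Complex V makes ATP. With dexamethasone 15 of its 18 genes were above 0 (median 0.15), and between the treatments 12 of 18 were below 0 (median -0.21). The first of these medians was 0.05 with scaling to the 75th percentile of all probes. The dexamethasone array was the highest for 12 of the 18 and the untreated array for 0 of them. The catalytic head was steady after quantile normalization. ATP5F1A, the alpha subunit, had 13.39, 13.27 and 13.42, and ATP5F1B, the beta subunit, had 14.31, 14.32 and 14.27. Their values under the scalings to a 75th percentile are not given here, so steadiness under those is left unstated. By their brightest probes the central stalk subunits delta (ATP5F1D) and epsilon (ATP5F1E) peaked with dexamethasone. ATP5F1D had 11.60, 11.84 and 11.28, while its second probe had 9.41, 9.32 and 8.45 with the untreated array the highest, and ATP5F1E had 12.29, 12.67 and 12.12. The difference between the treatments was -0.56 for each of them (bead SE 0.13 and 0.05). The gamma subunit ATP5F1C, also in the central stalk, had 11.91, 11.98 and 12.26, with the combination array the highest.

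The 3 genes of the c subunit, which encode the same mature protein of the rotor ring, did not share a pattern. ATP5MC2 had 12.74, 13.08 and 12.57, the dexamethasone array being the highest. ATP5MC3 had 6.86, 6.62 and 7.35, the combination array being the highest, by 0.73 (bead SE 0.16) over dexamethasone. ATP5MC1 had 11.69, 11.88 and 11.72, but its second probe had 8.94, 8.09 and 7.95, so the probes of ATP5MC1 differed in sign with dexamethasone (0.20 and -0.86). In the outer stalk, which holds the head still, ATP5PB had 13.08, 13.44 and 13.54, and ATP5PF had 12.33, 12.71 and 12.38. The second probe of ATP5PB had 11.92, 12.06 and 11.86, so its probes differed in sign for the combination against untreated (0.46 and -0.06). All 3 probes of ATP5PF put the dexamethasone array highest, with differences of 0.26, 0.43 and 0.38 over untreated. ATP5IF1, which inhibits the enzyme when it runs backwards, had 10.58, 10.60 and 10.27.

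The pattern over the arrays was counted for all 83 detected genes. The dexamethasone array was the highest for 43 of them (51.8%, against 31.4% of all detected genes). The combination array was the highest for 27 (32.5%, against 31.9%) and the untreated array for 13 (15.7%, against 36.8%). These counts were made on quantile normalized levels only. The dexamethasone array was the highest for 18 of 35 genes in complex I, 5 of 8 in complex III, 7 of 11 in complex IV and 12 of 18 in complex V. It was the highest for 0 of the 8 assembly factors, of which 5 were highest on the combination array and 3 on the untreated array. The dexamethasone array is also the one on its own slide, and the part of the slide in this pattern was not tested.

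More than 1 detected probe was present for 23 of the genes, which shows how far a value depends on the probe. The probes differed in sign for 10 genes with dexamethasone, 12 with the combination and 9 between the treatments. No gene had probes past 1.5-fold in opposite directions. The median spread between probes of a gene was 0.27, 0.40 and 0.30 in the 3 comparisons, several times the median bead SE, and the largest spreads were 1.05, 1.04 and 0.98. The second probe of UQCRB, a ubiquinone-binding protein of complex III, gave 0.75 with dexamethasone where the brighter probe gave 0.12. For ATP5MG, subunit g of ATP synthase, the second probe gave 0.64 between the treatments where the brighter probe gave -0.34. NDUFAF7, a methyltransferase that acts on complex I, had probes at -0.24, -0.51 and -1.02 with dexamethasone.

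**Figure D4:**
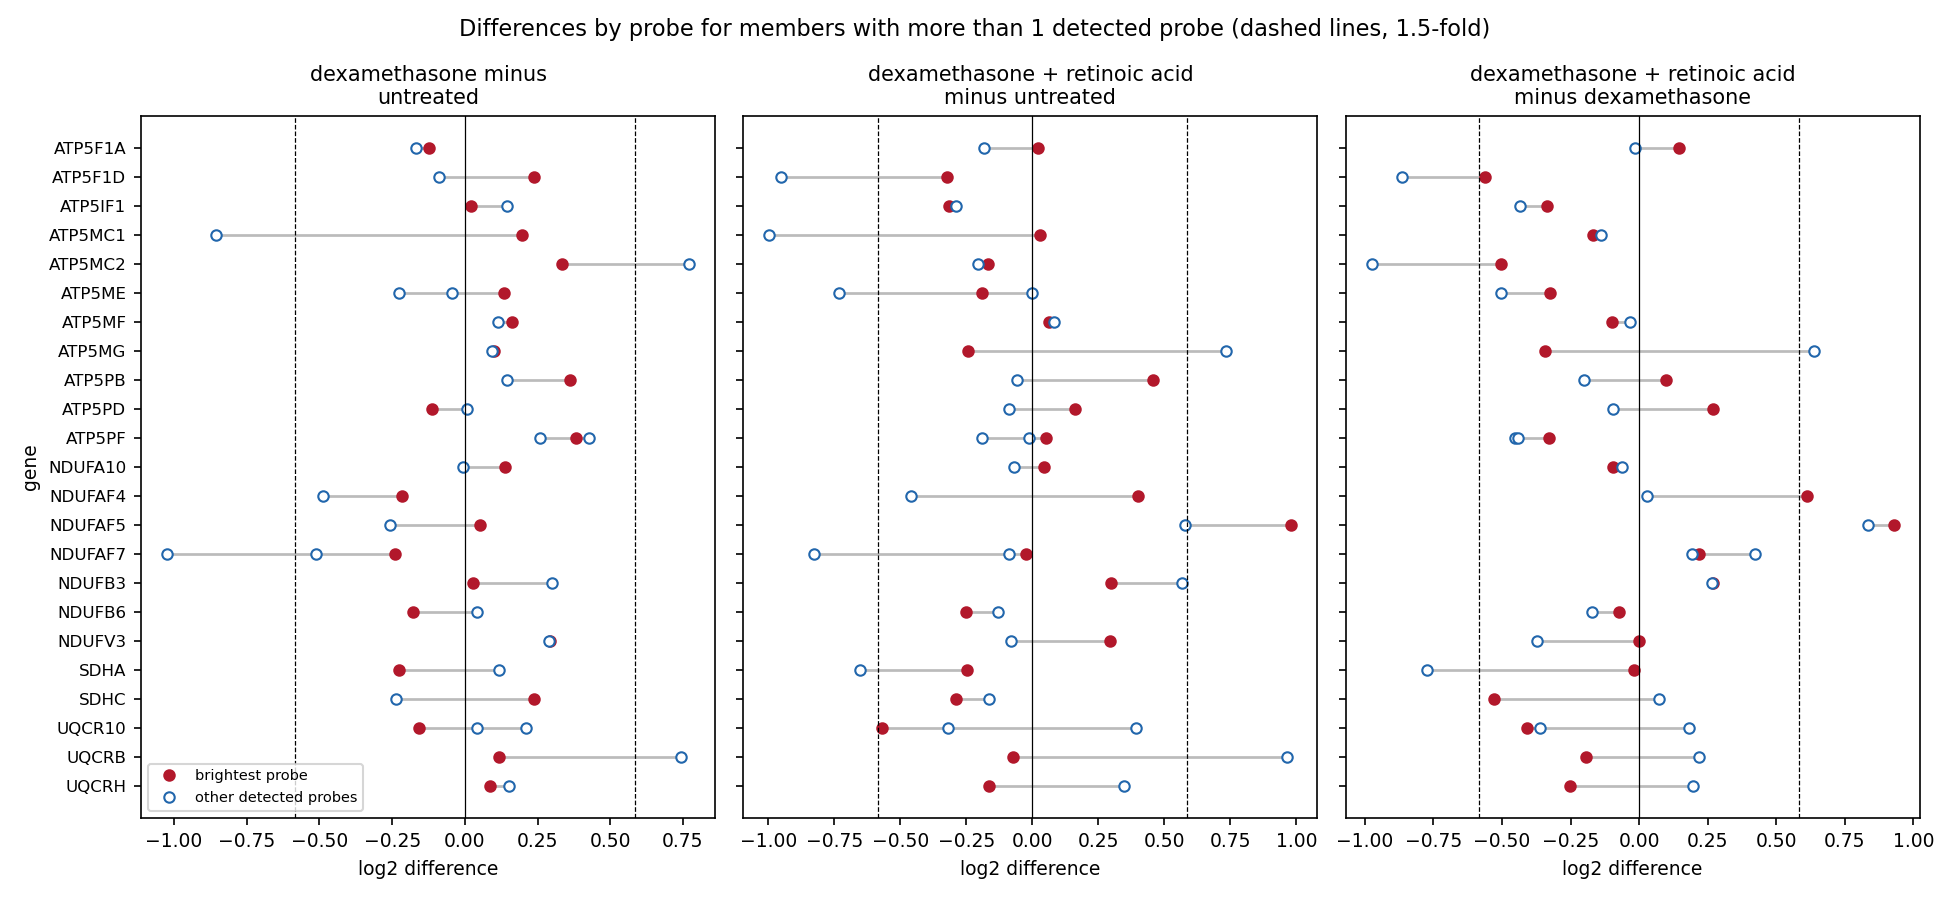
Log2 difference by probe for the 23 genes with more than 1 detected probe, in the 3 comparisons, with the brightest probe in red and the others open. Grey lines join probes of a gene and dashed lines mark 1.5-fold. Probes of a gene can lie on opposite sides of 0, as for ATP5MC1 with dexamethasone, and no gene has probes beyond both dashed lines.

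Genes with an NRF1 match in a promoter window had a median difference of 0.30 with dexamethasone (13 genes, from -0.21 to 0.60), against 0.13 for 56 genes whose windows held none. Between the treatments the medians were -0.17 in each set, 14 and 56 genes. The 9 genes with the YY1 letters had medians of 0.18, -0.24 and -0.27. All 9 were below 0 between the treatments, from -0.89 for UQCRC1 to -0.06 for NDUFA6, where 62.7% of all 83 genes were below 0. Genes whose windows held no YY1 letters had medians of 0.13, 0.03 and -0.13. These are descriptions of small sets on the same arrays. The 9 measured genes on chromosome 19, a group picked after its values were seen, had a median of 0.24 with dexamethasone and of -0.48 between the treatments, where all 9 were below 0. These 9 are NDUFA3, NDUFA7, NDUFA11, NDUFA13, NDUFB7, NDUFS7, UQCR11, COX6B1 and ATP5F1D. Of them, NDUFA7 and NDUFS7 are also among the genes with the YY1 letters. The median between the treatments was -0.09 for the other 74 genes. It was -0.16 for all 734 measured genes of that chromosome, of which 475 were below 0. With dexamethasone the median of all measured genes of that chromosome was -0.04. With the combination against untreated the median was -0.22 both for the 9 genes and for all 728 measured genes of that chromosome. Gene length went with the combination difference: Spearman's correlation across the 83 genes was 0.42 against untreated and 0.38 against dexamethasone, and 0.03 across 82 genes for dexamethasone against untreated. Over all measured genes it was 0.19, 0.10 and 0.13 in that order. These are correlations across genes of the same arrays, which are not independent replicates, and most of the genes (57 of 83) fell in the shortest tercile of all measured genes.

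Other genes of respiration were read beside the subunits. The 76 mitochondrial ribosomal proteins, which translate the subunits encoded by mitochondrial DNA, had a median of -0.19 with dexamethasone with 57 genes below 0, where 56 of 73 subunits of the complexes were above 0. At 1.5-fold 6 of these 76 were lower (7.89%, below the 13.7% of all measured genes) and 0 higher, MRPS34 (-0.91), MRPL17 (-0.90) and MRPL55 (-0.88) being the furthest. Between the treatments their median was 0.15, with 5 higher (6.58%, against 10.5%) and 0 lower at 1.5-fold, among them MRPL30 at 1.16. The signs of both medians were the same under every setting run. With the combination against untreated their median was -0.07 (6 higher and 8 lower at 1.5-fold, 7.89% and 10.5%, against 15.5% and 16.1%), and it was 0.03 with scaling to the 75th percentile of all probes. The 39 measured assembly factors without the NDUFAF prefix had medians of -0.11, -0.10 and 0.02, so their sign was that of the 8 with it except for the combination against untreated. The last of these medians was -0.01 with scaling to detected probes, and the second was 0.01 with scaling to all probes. Among them 0 were higher and 3 lower (7.69%) at 1.5-fold with dexamethasone (COA1, FOXRED1 and NUBPL), and 2 higher (5.13%, SDHAF3 and LYRM7) and 0 lower between the treatments. With the combination against untreated 6 were higher (15.4%) and 4 lower (10.3%). None of these shares was above that of all measured genes. The 18 genes of electron carriers and coenzyme Q synthesis had medians of -0.02, -0.01 and 0.10. ETFDH, which feeds electrons from fatty acid oxidation into ubiquinone, had levels of 8.60, 9.40 and 9.39, so both treated arrays were high, by 0.80 and 0.79. COQ8A, an ADCK-family protein needed for coenzyme Q synthesis, had 7.94, 8.38 and 9.05, a difference of 1.11 (bead SE 0.11) for the combination over untreated.

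**Figure D5:**
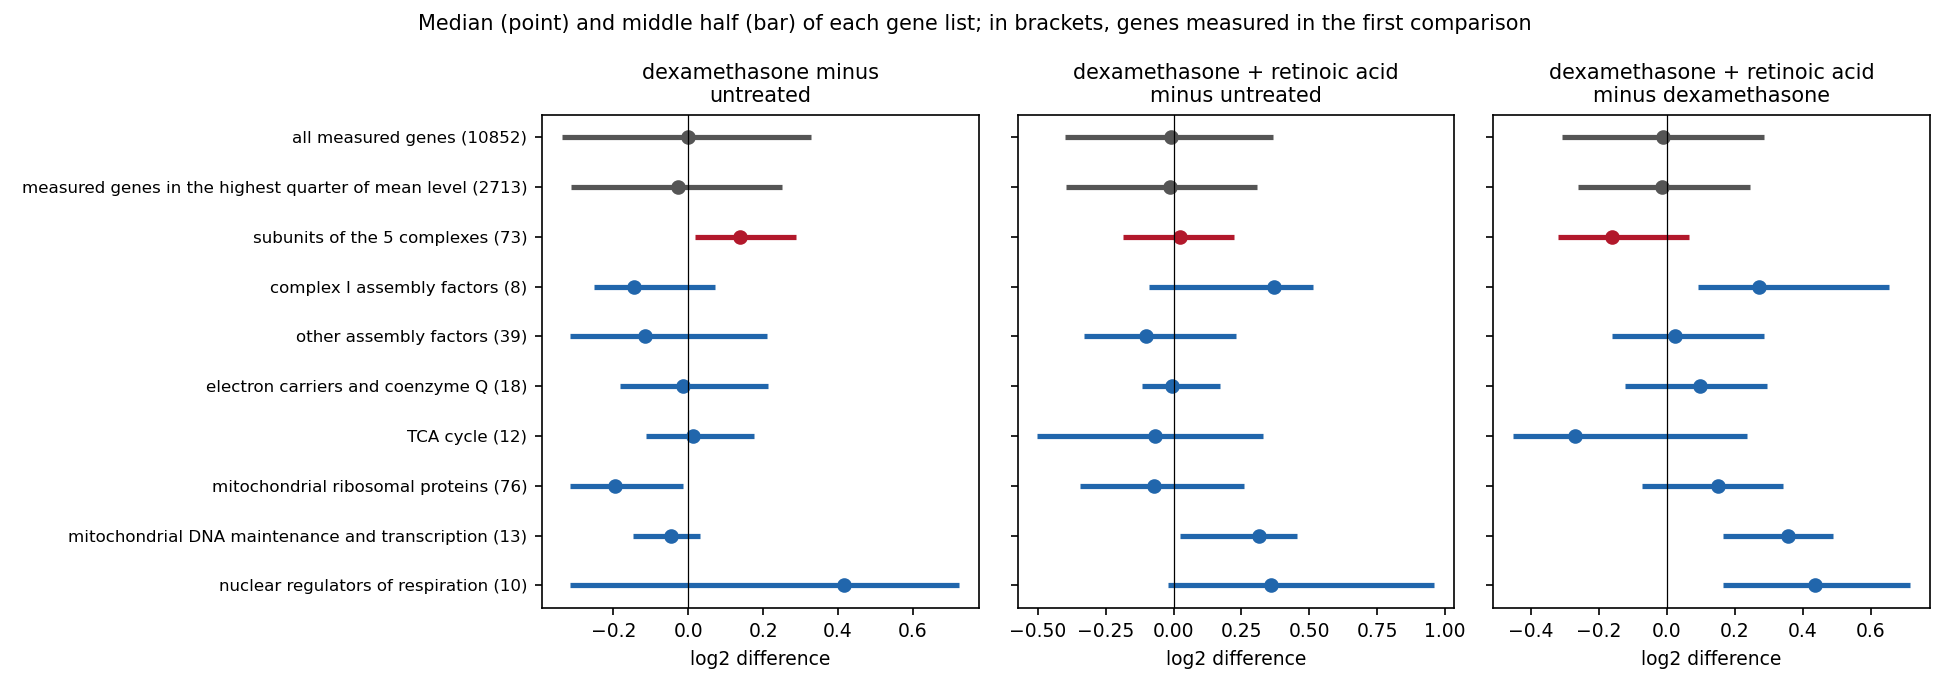
Median (point) and interquartile range (bar) of the log2 difference for each gene list in the 3 comparisons, with the subunits of the 5 complexes in red and all measured genes in grey. The horizontal scales differ between panels. The subunits have medians of 0.14, 0.02 and -0.16 and the mitochondrial ribosomal proteins of -0.19, -0.07 and 0.15.

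Nuclear regulators of respiratory genes differed more than the subunits did. Of 15 named, 10 were measured, and PPARGC1A, NRF1, ESRRB, ESRRG and SIRT3 were not detected on any array. GABPB1, a partner of the ETS factor GABPA that binds many of these promoters, had levels of 10.05, 8.85 and 9.91, so the dexamethasone array alone was low, with a difference of -1.20 from untreated (bead SE 0.11). ESRRA, the estrogen-related receptor alpha, had 7.90, 8.65 and 8.20, with the dexamethasone array the highest by 0.75. MYC had 11.93, 12.49 and 13.14, and HIF1A, the oxygen-regulated factor, had 9.04, 9.31 and 10.05, both highest with the combination. EPAS1, a related factor, was not detected in untreated cells and had 6.90 with dexamethasone and 11.32 with the combination, so it was at least 5.73 log2 units higher with the combination than in untreated cells. The 15 are few and the list's medians of 0.42, 0.36 and 0.44 rest on the 10 measured. With genes detected on both arrays only, the first of these medians was -0.01.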

How the data were processed

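Total RNA of HCC1937 cells was made into biotinylated cRNA and hybridised to Illumina bead arrays, per the labels' protocols. The deposited table gives a mean bead intensity per probe, not normalized per the file headers, with its bead standard error and the count of beads (median 22, 21 and 22 per probe, per the deposited columns). The deposited table also holds a detection p-value, a comparison with negative control beads. A deposited second table holds normalized intensity values and served as an alternative. Which software made it is not given in the sources used here.

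limma 3.58.1 in R 4.3.3 inferred the negative controls from the detection p-values, applied normexp background correction with an offset of 16, quantile normalized the 3 arrays and took log2. Quantile normalization makes levels relative, so a change in total RNA or mitochondrial content is not measured. Each gene was read from its probe with the highest mean. A gene counted as measured if its detection p was under 0.01 on at least 1 of the 2 arrays compared. For an undetected side the lowest detected level of that array stood in, or its own if higher, which makes the difference a bound. Later steps used Python 3.11.15, numpy 2.4.6, pandas 2.3.3 and matplotlib 3.10.9. The steps were tested on simulated data. Probes were named from the platform annotation, and gene type, chromosome and length came from the RefSeq gene table (GRCh38.p14), which matched 30070 of the 30109 probes with 1 symbol. A further 17198 probes were unnamed here and 8 had several symbols.

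The labels gave the groups, and because each holds 1 array no test was run and precision is limited by the number of arrays. Named were the genes past 1.5-fold in any comparison, all of complex II, the isoform families and up to 4 genes past 1.5-fold from each other list. Further members were named after their values were seen, as were extra genes of the lists. The rule also asked for the highest and lowest gene of each complex, which was left out because levels of different probes cannot be set against each other. The genes and lists were chosen with earlier results of these data known. Alternatives were the background step, its offset, the scaling, the deposited normalized values, the detection filter and the probe chosen. Protein sequences were not used here.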

Additional observations from a re-analysis of the deposited data

How the results depend on the processing

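Of 24 differences of single genes past 1.5-fold, 13 stayed past it under all 8 alternatives, and of 190 alternative values 0 changed sign. The 13 include COX7A2L with dexamethasone and NDUFAF5, NDUFAF6, NDUFV2, NDUFB7 and UQCRC1 in both comparisons of the combination. For a gene with a single probe detected on every array, changing the detection filter or the probe returns the reported value by construction. That holds for COX7A2L, NDUFAF6, NDUFV2, NDUFB7 and UQCRC1, so only the background, scaling and deposited-value alternatives could move them. The median over the genes was 0.03 for dexamethasone against untreated with scaling to the 75th percentile of all probes (0.13 as reported). With scaling to the 75th percentile of detected probes, added after seeing the data, it was -0.057 for the combination against untreated (0.025 as reported) and -0.193 between the treatments (-0.111 as reported).

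The counts past a size moved as follows. For dexamethasone against untreated, 1 gene was higher with scaling to the 75th percentile of all probes, and 0 were lower without background correction, with an offset of 50 or with the deposited normalized values. For the combination against untreated, 3 were higher without background correction and 7 were lower under each of the scalings. Between the treatments, 4 were higher without background correction or with the deposited values, and 7 were lower with scaling to detected probes. The count of 1 at 2-fold, which is NDUFA5, was 0 in both comparisons of the combination without background correction, with an offset of 50, with the deposited values and with detection required on both arrays. Between the treatments it was also 0 with scaling to detected probes, and 2 with scaling to all probes. No paired analysis was possible because each group has 1 array. The shares of all measured genes past 1.5-fold, higher and lower, went from 13.4% and 13.7% to 7.13% and 7.54% without background correction and 6.83% and 7.14% with the deposited values for dexamethasone against untreated. They went from 15.5% and 16.1% to 8.47% and 9.29%, and 8.0% and 8.87%, for the combination against untreated, and from 10.5% and 11.5% to 4.74% and 5.89%, and 4.54% and 5.51%, between the treatments. The cause was not tested.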

Other observations

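The 12 measured genes of the citric acid cycle, which supplies NADH and succinate to the chain, had medians of 0.01 with dexamethasone, -0.07 with the combination and -0.27 between the treatments. IDH2, the mitochondrial NADP-dependent isocitrate dehydrogenase, had levels of 9.92, 11.35 and 10.35 on the untreated, dexamethasone and combination arrays, so the dexamethasone array was high, by 1.43 over untreated (bead SE 0.07). IDH3A, a subunit of the NAD-dependent enzyme, had 8.17, 7.47 and 7.19, and OGDH, which acts on 2-oxoglutarate, had 8.42, 8.60 and 7.53. The combination array was low for OGDH, with differences of -0.89 from untreated and -1.06 from dexamethasone.

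The 13 measured genes of mitochondrial DNA maintenance and transcription had medians of -0.05, 0.31 and 0.36, and 10 of the 13 (76.9%, against 31.9% of all detected genes) were highest on the combination array. SSBP1, which coats single-stranded mitochondrial DNA, had 11.60, 11.46 and 12.38, and TFB2M, a transcription factor of mitochondrial DNA, had 9.80, 9.99 and 10.54. Of the 6 measured carriers and porins, with medians of 0.03, 0.13 and 0.15, only VDAC1 passed 1.5-fold, with 12.60, 12.65 and 13.35. It was higher with the combination in both comparisons, 1 gene or 16.7% of so short a list. Over all measured genes the share was 15.5% against untreated and 10.5% between the treatments.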
